A study of Homo sapiens with 18 samples.

Results

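NF-kappaB subunits, their regulators, and the chemokines, cytokines and other targets of the pathway were followed through poly-A RNA-seq of H1650 and PC9, 2 human lung adenocarcinoma lines that carry activating EGFR mutations. The set was listed by name and held 42 genes of 60764 gene identifiers in the count tables. It was chosen with earlier results of these data known, so member shares set against all genes below only describe this list. It had 3 canonical subunits, 6 genes of the non-canonical arm, 8 inhibitor or feedback genes, 8 chemokines, 12 cytokines and 5 other targets. Each line had 3 groups of 3 libraries: Tr-BrM S100A9-inh, Tr-BrM control and BrM control. All groups are brain-metastatic derivatives of the parental line. The labels do not spell out Tr, nor how S100A9 was inhibited, nor whether a derivative was 1 clone or a pool, so each group stands for the derivative as deposited. Below, the inhibited group is called S100A9-inh. Whether the 3 libraries of a group are separate cultures or repeats of 1 culture is not in the labels. Each p-value therefore reflects the spread among these libraries alone, which may be technical.

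NF-kappaB is a family of dimeric transcription factors held inactive in the cytoplasm by IkappaB proteins. In the canonical arm, receptors for TNF, IL-1 or microbial products activate the IKK complex, IkappaB is degraded, and dimers of RELA or REL with the NFKB1 product enter the nucleus and switch on chemokines, cytokines and their own inhibitors. In the non-canonical arm, receptors such as CD40, LTBR and RANK free the kinase NIK (MAP3K14) from a complex of TRAF3 with BIRC2 and BIRC3, and NIK drives processing of the NFKB2 precursor, whose product pairs with RELB. RNA levels of these genes are not a measure of nuclear NF-kappaB, since much of the pathway is controlled on protein.

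The kappaB consensus, read on both strands in the 250 bases before the gene start, lay in at least 1 promoter entry of 19 of the 34 members that matched the RefSeq promoter table of GRCh38.p14 (55.9%), against 3221 of 27305 genes in that table (11.8%). The members were listed as parts and targets of NF-kappaB, so a higher share than in all genes was built into the list. Genes with more promoter entries also have more windows in which to match, and the number of entries per gene was not matched. A match is a description of these letters and does not show binding. The promoters below belong to the 6 members with the largest changes, at a group mean of 5 CPM (the count scaled to the library total) or more, that held a match. They are those of a chemokine, 2 cytokines, 2 feedback genes and a gene of the non-canonical arm, written on the gene's strand with the matches in capitals. Each ends at the base before the start of transcription.
IL32, chr16:3065153-3065402, plus strand: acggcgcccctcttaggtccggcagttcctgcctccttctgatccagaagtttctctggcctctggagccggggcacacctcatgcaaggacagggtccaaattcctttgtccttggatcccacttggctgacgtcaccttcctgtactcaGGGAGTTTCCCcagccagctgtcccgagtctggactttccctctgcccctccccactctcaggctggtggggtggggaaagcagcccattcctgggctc
TNFAIP3, chr6:137867009-137867258, plus strand: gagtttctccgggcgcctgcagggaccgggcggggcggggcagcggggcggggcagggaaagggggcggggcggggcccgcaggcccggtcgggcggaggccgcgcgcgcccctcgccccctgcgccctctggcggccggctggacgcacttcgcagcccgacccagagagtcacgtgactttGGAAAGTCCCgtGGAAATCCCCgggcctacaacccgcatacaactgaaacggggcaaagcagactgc
CXCL5, chr4:73998678-73998927, minus strand: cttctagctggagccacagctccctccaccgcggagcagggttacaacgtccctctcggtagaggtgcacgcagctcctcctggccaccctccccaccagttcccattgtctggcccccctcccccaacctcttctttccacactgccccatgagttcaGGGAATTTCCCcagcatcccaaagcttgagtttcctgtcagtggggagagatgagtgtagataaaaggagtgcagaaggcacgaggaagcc
IL6, chr7:22726950-22727199, plus strand: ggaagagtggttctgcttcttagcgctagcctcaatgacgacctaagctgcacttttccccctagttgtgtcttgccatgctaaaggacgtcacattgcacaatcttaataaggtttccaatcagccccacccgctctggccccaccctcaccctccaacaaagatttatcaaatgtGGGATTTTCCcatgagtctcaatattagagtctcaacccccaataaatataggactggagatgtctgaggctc
NFKBIZ, chr3:101827740-101827989, plus strand: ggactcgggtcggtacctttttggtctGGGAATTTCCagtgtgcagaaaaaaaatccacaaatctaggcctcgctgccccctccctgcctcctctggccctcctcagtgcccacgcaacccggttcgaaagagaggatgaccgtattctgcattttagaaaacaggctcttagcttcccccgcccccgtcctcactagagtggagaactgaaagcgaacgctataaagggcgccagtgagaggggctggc
BIRC3, chr11:102317234-102317483, plus strand: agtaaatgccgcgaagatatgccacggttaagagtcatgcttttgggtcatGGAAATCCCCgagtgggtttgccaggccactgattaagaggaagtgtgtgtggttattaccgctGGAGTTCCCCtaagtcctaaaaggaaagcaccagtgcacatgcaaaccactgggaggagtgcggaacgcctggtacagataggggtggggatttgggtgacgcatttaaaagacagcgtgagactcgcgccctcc
In IL32 and CXCL5 the capitals hold 2 matches on opposite strands that overlap, and TNFAIP3 and BIRC3 hold 2 separate matches each. CXCL1, CXCL2 and CXCL3, near-identical chemokine genes of the CXCL cluster on chromosome 4, held a pair of overlapping matches 77 to 79 bases before the start. PTGS2, whose log2 fold changes reached the largest size among the tested members, had no match to these letters in this window.

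Total counts per library ran between 18174516 and 21748732 in PC9 and between 17403497 and 27112362 in H1650. S100A9 itself, at 95.2, 88.2 and 105 CPM in H1650 S100A9-inh, 336, 293 and 292 CPM in Tr-BrM control and 217, 206 and 199 CPM in BrM control, followed the labels. In PC9 it was at 33.9, 30.4 and 35.5 CPM in S100A9-inh, 739, 738 and 759 CPM in Tr-BrM control and 119, 127 and 120 CPM in BrM control. CPM is the count scaled to the TMM-adjusted library total and was used to compare a gene between libraries. Keratins and EPCAM were high in every group, whereas the lung lineage markers NKX2-1 and NAPSA stayed under 1 CPM in every group mean. Replicate 1 of PC9 S100A9-inh stood apart from its group: its counts differed from replicates 2 and 3 by a chi-square per degree of freedom of 6.51 and 5.85, against 1.54 to 3.89 in the other 16 replicate pairs. Without that library, 27 members passed the test between S100A9-inh and Tr-BrM control, as with it.

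Levels between genes were compared per length, in TPM, which scales counts by gene length and library. The length was that of all annotated exons of a gene joined, 16493 bases for SOD2, and the order of the members depends on that choice. In H1650 the highest members in S100A9-inh were NFKB2 at 186 TPM, IL18 at 128 TPM and NFKBIA at 108 TPM. In PC9 S100A9-inh they were TNFAIP2 at 339 TPM, TNIP1 at 151 TPM and NFKBIA at 77.9 TPM. Cytokine levels ran over a wide range: in S100A9-inh, IL6 was at 63.2 TPM in H1650 and IL11 at 53.8 TPM in PC9, whereas several members had few counts. TNF, the prototype inducer of the pathway, had 11 counts over all 9 H1650 libraries and CSF2, a growth factor for granulocytes and macrophages, had 9. In PC9, CXCL5 and CCL2 had no count in any library, and CSF3, CXCL3, CCL20, CSF2 and IL1A had 2, 12, 20, 22 and 35 counts over 9 libraries. These members did not pass the filter on low counts, which left 40 tested members in H1650 and 35 in PC9. Bulk RNA cannot tell fewer expressing cells from less RNA per cell.

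In H1650, S100A9-inh cells had higher RNA of most of the set than Tr-BrM control cells. Of 40 tested members 28 rose, 2 fell and 10 did not pass (edgeR quasi-likelihood test, Benjamini-Hochberg adjusted p below 0.05). That is 70% higher and 5% lower, where 15.4% of all 17937 tested genes were called higher and 13.8% lower. The median log2 fold change was 0.50 over the members and 0.00 over all tested genes. With scaling by library size alone, 40.8% of all called genes were higher in place of 52.8%, whereas 93.3% of called members were higher under both scalings. By their labels the 2 groups are the same derivative, with and without inhibition of S100A9, and whether they differ in other ways is not in the labels. S100A9 is an alarmin that can signal through TLR4 and RAGE, which was not tested here.

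**Figure D1:**
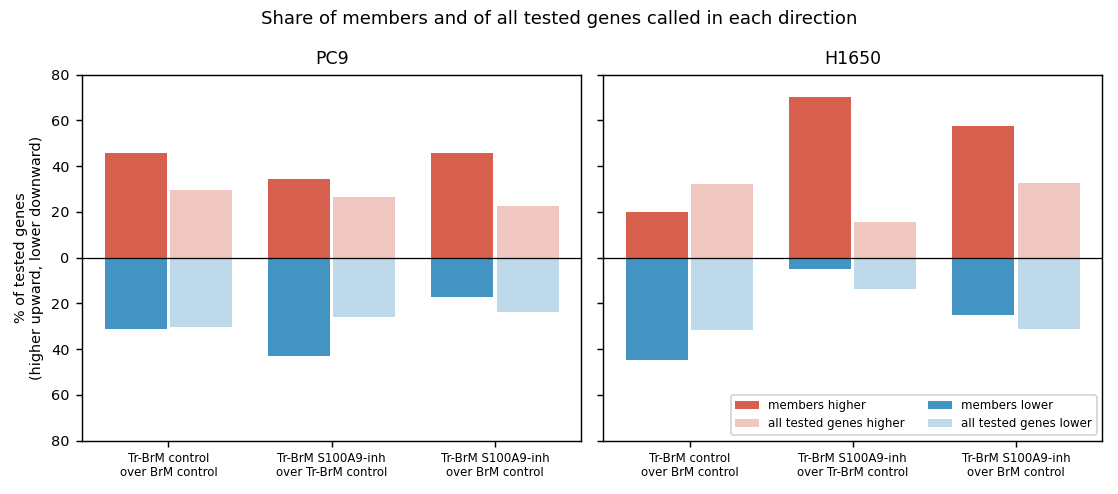
Percent of tested members (solid) and of all tested genes (pale) called higher (upward) or lower (downward) by edgeR in each comparison of PC9 and H1650. The tallest bar is H1650 S100A9-inh over Tr-BrM control, with 70% of members higher against 15.4% of all genes.

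In H1650, 5 of the 6 genes of the non-canonical arm rose and none fell, with a median log2 fold change of 0.62. NFKB2, which encodes the p100 precursor of p52 (ENSG00000077150, chr10:102394110-102402529), was at 228, 240 and 240 CPM in S100A9-inh, against 136, 142 and 140 CPM in Tr-BrM control. RELB, the partner of p52 (chr19:45001430-45038198), was at 43.3, 45.9 and 44.1 CPM in S100A9-inh, against 17.7, 17.5 and 19.2 CPM in Tr-BrM control. Every S100A9-inh library lay above every Tr-BrM control library for both subunits. The log2 fold changes were 0.75 ± 0.0331 (SE, adjusted p = 2.78e-16) for NFKB2 and 1.29 ± 0.0576 (adjusted p = 3.38e-16) for RELB, or 1.69-fold and 2.45-fold. BIRC3, the ubiquitin ligase cIAP2 and itself a classic target, was at 42.2, 38.9 and 42.8 CPM in S100A9-inh, against 20.9, 19.9 and 20.2 CPM in Tr-BrM control, and rose 2.04-fold (log2 1.03 ± 0.0586). The kinase MAP3K14 and its restraint TRAF3 rose less, by 0.49 ± 0.0424 and 0.45 ± 0.042 on the log2 scale. BIRC2, the close relative of BIRC3, was at 88.7, 86.4 and 93.5 CPM in S100A9-inh and 83.5, 88.2 and 86.9 CPM in Tr-BrM control, which overlap, and did not pass (0.05 ± 0.0392, adjusted p = 0.334).

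**Figure D2:**
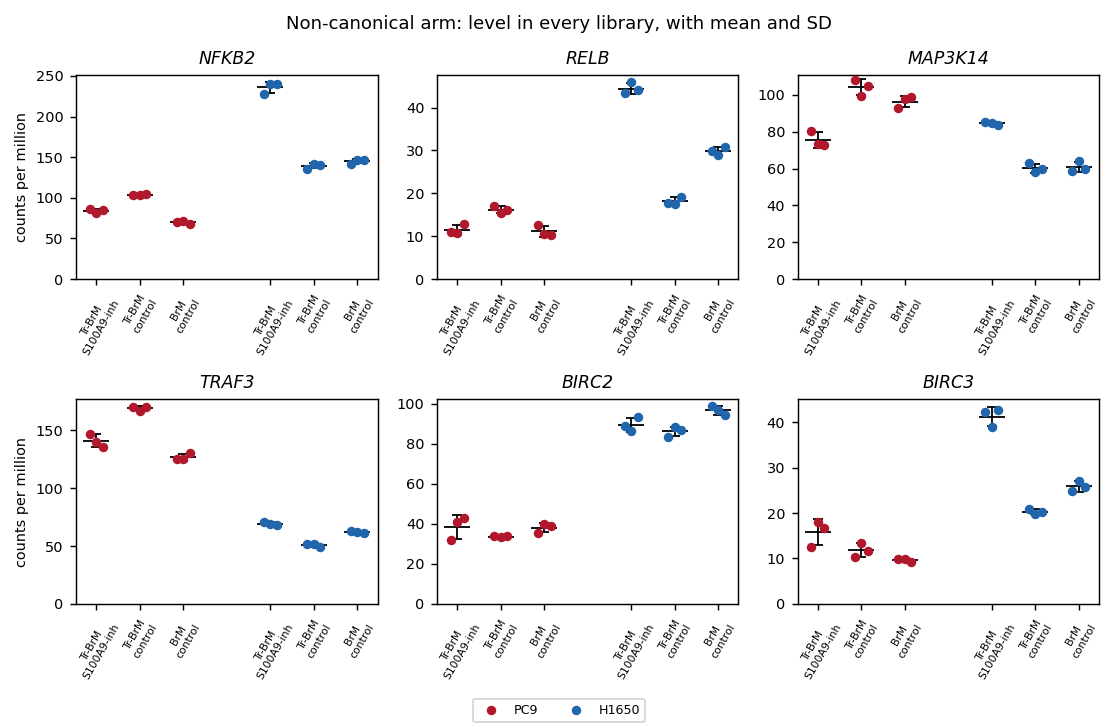
CPM of the 6 non-canonical genes in every library, one point per library, with the mean (dash) and SD (bar) of each group of 3, PC9 at the left and H1650 at the right of each panel. In H1650 all S100A9-inh libraries lie above both other groups for NFKB2, RELB, MAP3K14, TRAF3 and BIRC3, whereas in PC9 Tr-BrM control is the highest group for NFKB2, RELB, MAP3K14 and TRAF3.

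Of the 3 canonical subunits 1 rose in H1650. NFKB1, which encodes p105 and p50, was at 54.8, 58.3 and 56.4 CPM in S100A9-inh, against 49, 46.6 and 46.9 CPM in Tr-BrM control, and rose by 0.25 ± 0.0448. RELA, the main transactivating subunit, and REL did not pass, at 0.09 ± 0.0387 and 0.27 ± 0.11, although the 3 S100A9-inh libraries of each lay above the Tr-BrM control libraries. Of the 8 inhibitor and feedback genes 5 rose and 1 fell. TNFAIP3, the ubiquitin editor A20 that ends signalling, was at 43.7, 42.5 and 39.6 CPM in S100A9-inh, against 20.9, 24 and 22.3 CPM in Tr-BrM control. It rose 1.86-fold (log2 0.90 ± 0.0621, adjusted p = 3.71e-12), and its partner TNIP1 rose by 0.59 ± 0.0388. The inhibitors NFKBIA and NFKBIE rose by 0.32 ± 0.0524 and 0.55 ± 0.118, and the adaptor TRAF1, at only 2.92 to 4.99 CPM, rose by 0.44 ± 0.141. TRAF1 did not pass with DESeq2 (adjusted p = 0.104), without replicate 1 of S100A9-inh (adjusted p = 0.113) or without replicate 3 of Tr-BrM control (adjusted p = 0.0975), and its adjusted p ran from 0.0183 to 0.113 over 13 alternatives. BCL3, a nuclear IkappaB protein that works with p52 and p50, fell by 0.19 on the log2 scale (adjusted p = 0.0497), and this call was lost in 8 of 13 alternatives, including each of the 6 left-out libraries (adjusted p 0.0202 to 0.131). NFKBIB and NFKBIZ, another IkappaB inhibitor and the nuclear co-activator IkappaB-zeta, did not pass.

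All 8 chemokines passed in H1650, 7 of them higher. CXCL8, the neutrophil attractant interleukin-8 (chr4:73740506-73743716), was at 25.3, 23.8 and 14.3 CPM in S100A9-inh, against 10.1, 11.8 and 6.61 CPM in Tr-BrM control. The groups do not overlap, replicate 3 was the lowest library of each, and the log2 fold change was 1.13 ± 0.176 (adjusted p = 1.03e-05). CXCL5, a related neutrophil attractant, was at 14.3, 14 and 13.1 CPM in S100A9-inh, against 8.42, 6.04 and 5.59 CPM in Tr-BrM control, and rose 2.08-fold. CXCL1, CXCL2 and CXCL3 were lower, between 2.11 and 5.18 CPM in S100A9-inh and between 0.534 and 2.04 CPM in Tr-BrM control, with log2 fold changes of 1.15 ± 0.217, 1.03 ± 0.222 and 1.46 ± 0.288. These 3 genes are so alike that reads can be split between them, and each value is uncertain for that reason. CCL5, a T cell and monocyte attractant, was at 16.2, 15.1 and 17.2 CPM in S100A9-inh, against 10.9, 11.8 and 11.6 CPM in Tr-BrM control, and rose by 0.50 ± 0.0694. CCL20, the ligand of CCR6, rose by 0.99 ± 0.278 at 1.46 to 2.91 CPM in S100A9-inh, a call lost without replicate 2 of that group (adjusted p = 0.0752, range over 13 alternatives 0.000576 to 0.0752). CCL2, the monocyte attractant MCP-1, went the other way: it was at 4.59, 6.83 and 3.99 CPM in S100A9-inh, against 7.59, 8.78 and 7.38 CPM in Tr-BrM control, and fell by 0.64 on the log2 scale (SE 0.154, adjusted p = 0.00184).

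Of 10 tested cytokines 7 rose in H1650 and none fell. IL6, the gp130 ligand that signals through STAT3 (chr7:22725884-22732002), was at 40.4, 33.9 and 36.6 CPM in S100A9-inh, against 16, 16.9 and 18.2 CPM in Tr-BrM control. The 2.17-fold rise (log2 1.12 ± 0.0675, adjusted p = 2.01e-13) went with rises of the other gp130 ligands IL11 and LIF, by 1.07 ± 0.156 and 0.92 ± 0.181. IL32, an inducer of other inflammatory cytokines found in primates but not in mice, had the second largest log2 change of the cytokines: 12.2, 13.8 and 14.1 CPM in S100A9-inh, against 3.07, 4.02 and 3.16 CPM in Tr-BrM control (1.94 ± 0.117). CSF3, the granulocyte growth factor, was at 2.42, 1.56 and 0.92 CPM in S100A9-inh, against 0.26, 0.366 and 0.0972 CPM in Tr-BrM control, and rose by 2.68 ± 0.444. IL1B was similarly scarce, at 3.16, 1.43 and 1.04 CPM in S100A9-inh and 0.676, 0.622 and 0.292 CPM in Tr-BrM control, with a rise of 1.81 ± 0.423. Replicate 1 of S100A9-inh was the highest library for both. IL18, an inflammasome-processed cytokine that epithelia hold in store, rose by 0.33 ± 0.0432. IL1A, IL23A and the macrophage growth factor CSF1 did not pass, at 0.48 ± 0.193, 0.22 ± 0.267 and -0.21 ± 0.14.

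Of the other targets in H1650, PTGS2, the inducible prostaglandin synthase COX-2 (chr1:186671791-186680427), was at 39.8, 34.8 and 37.5 CPM in S100A9-inh, against 21.6, 24 and 22.8 CPM in Tr-BrM control, and rose by 0.71 ± 0.0716. The adhesion molecule ICAM1 rose by 0.51 ± 0.0629 and TNFAIP2, a TNF-induced protein involved in membrane tubes, by 0.37 ± 0.0407. CD83, a surface protein of mature dendritic cells, and the mitochondrial superoxide dismutase SOD2 did not pass. Myeloid markers, among the other cells that make these cytokines, summed to 109 to 116 CPM in S100A9-inh and 101 to 106 CPM in Tr-BrM control over 9 genes. Most of that was CSF1R, at 96 CPM in S100A9-inh and 77.5 CPM in Tr-BrM control, and the defining leukocyte gene PTPRC was at 4.39 and 6.25 CPM in those groups. FCER1G was at 2.3 CPM in S100A9-inh and 5.03 CPM in Tr-BrM control, and LYZ at 0.305 and 1.29 CPM in those groups. Astrocyte markers summed to 169 to 180 CPM in S100A9-inh and 225 to 236 CPM in Tr-BrM control, with GFAP at 31.7 and 63.2 CPM, and fibroblast markers to 181 to 189 CPM and 159 to 180 CPM in those groups. Their part in these results was not tested.

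**Figure D3:**
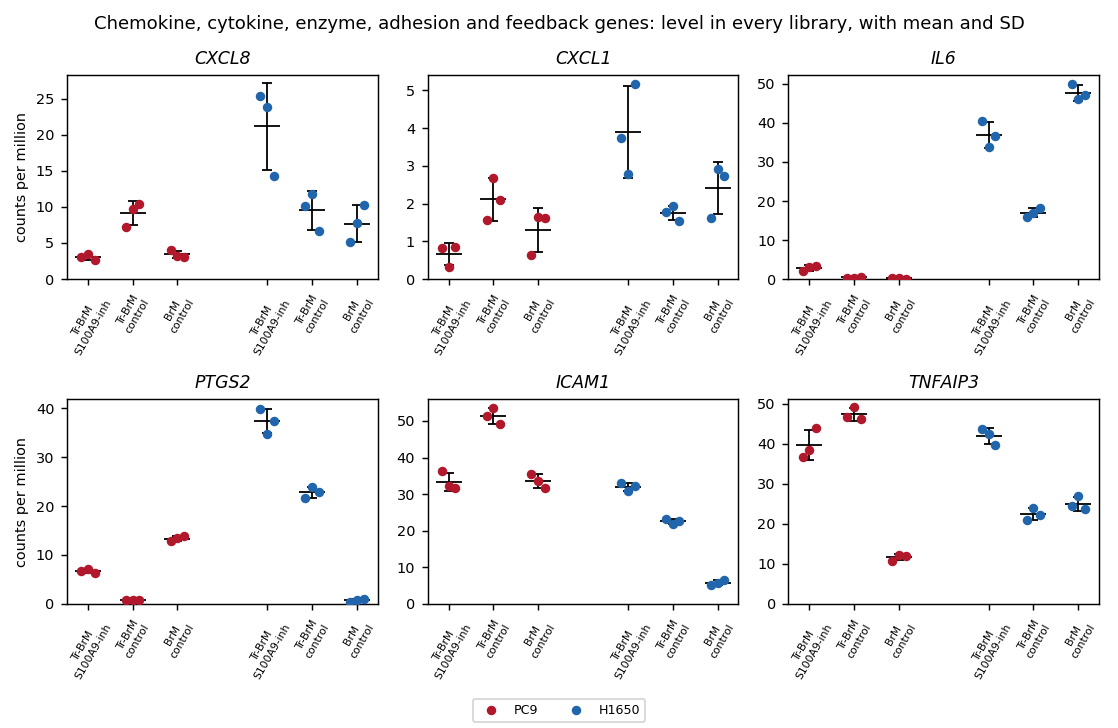
CPM of CXCL8, CXCL1, IL6, PTGS2, ICAM1 and TNFAIP3 in every library, one point per library, with the mean (dash) and SD (bar) of each group of 3. S100A9-inh lies above Tr-BrM control for all of them in H1650, and in PC9 above it for IL6 and PTGS2 and below it for the others.

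In PC9 the set was called in both directions. Between S100A9-inh and Tr-BrM control, 12 of 35 tested members rose, 15 fell and 8 did not pass, that is 34.3% higher and 42.9% lower, where 26.3% of all 16169 tested genes were called higher and 26.1% lower. The median log2 fold change over the members was -0.20, and 0.00 over all tested genes.

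In PC9 4 of the 6 non-canonical genes fell and 2 rose, and of the 3 canonical subunits 2 rose and none fell. NFKB2 was at 86.1, 81.1 and 85.1 CPM in S100A9-inh, against 103, 103 and 105 CPM in Tr-BrM control, and fell by 0.30 on the log2 scale (SE 0.0463, adjusted p = 2.3e-06). RELB, at 10.9, 10.8 and 12.9 CPM in S100A9-inh and 17.1, 15.4 and 16 CPM in Tr-BrM control, fell by 0.49 (SE 0.1). MAP3K14 and TRAF3 fell by 0.46 (SE 0.0501) and 0.26 (SE 0.0411), with no overlap between the groups. RELA was at 123, 119 and 116 CPM in S100A9-inh, against 101, 94.6 and 104 CPM in Tr-BrM control, and rose by 0.26 ± 0.0453, and REL rose by 0.31 ± 0.109. REL did not pass with DESeq2 or without replicate 3 of S100A9-inh (adjusted p = 0.0512, range over 13 alternatives 0.0103 to 0.0703). In the non-canonical list BIRC2 and BIRC3 rose by 0.20 ± 0.0794 and 0.41 ± 0.114, but the groups overlap in both genes, and the BIRC2 call was lost in 7 of 13 alternatives (adjusted p 1.94e-05 to 0.282).

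Of the 8 inhibitor and feedback genes of PC9, 4 rose, 1 fell and 3 did not pass. NFKBIA, the IkappaB-alpha that RELA itself induces, was at 55.3, 53.3 and 50.8 CPM in S100A9-inh, against 31.6, 30.7 and 32.3 CPM in Tr-BrM control, a 1.69-fold rise (log2 0.75 ± 0.0622, adjusted p = 1.29e-11). BCL3 was at 32.3, 30.1 and 28.3 CPM in S100A9-inh, against 12.8, 11.4 and 11.7 CPM in Tr-BrM control, and rose 2.53-fold (log2 1.34 ± 0.0899). NFKBIE and TNIP1 rose by 0.51 ± 0.122 and 0.33 ± 0.0411. TNFAIP3 fell by 0.26 (SE 0.067), to 36.8, 38.5 and 43.9 CPM in S100A9-inh, against 46.8, 49.2 and 46.1 CPM in Tr-BrM control.

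Of 4 tested chemokines 1 rose and 2 fell in PC9 S100A9-inh, and of 9 tested cytokines 2 rose and 4 fell. CXCL8 was at 3, 3.41 and 2.63 CPM in S100A9-inh, against 7.24, 9.68 and 10.4 CPM in Tr-BrM control, and fell by 1.59 on the log2 scale (SE 0.16, adjusted p = 9.14e-10). CXCL1, at 0.323 to 0.859 CPM in S100A9-inh and 1.56 to 2.68 CPM in Tr-BrM control, fell by 1.68 (SE 0.358), and CXCL2 did not pass (-0.76 ± 0.458). TNF had 4 counts over the 3 S100A9-inh libraries and 36 over the 3 Tr-BrM control libraries, and fell by 3.09 (SE 0.707, adjusted p = 0.000471). IL18 fell by 0.43 (SE 0.0583), LIF by 0.53 (SE 0.0563) and IL32 by 0.84 (SE 0.247). The IL32 call rests on few reads, at 1.11 to 2.27 CPM in S100A9-inh and 2.5 to 3.7 CPM in Tr-BrM control, and was lost without replicate 2 of S100A9-inh (adjusted p = 0.0524) or without replicate 2 of Tr-BrM control (adjusted p = 0.0542), with a range of 0.000496 to 0.0542 over 13 alternatives. CCL5 ran against this, at 1.02, 1.34 and 1.18 CPM in S100A9-inh and 0.208, 0.389 and 0.46 CPM in Tr-BrM control, and rose by 1.72 ± 0.432.

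IL6 and PTGS2 had the largest rises in PC9. IL6 was at 2.03, 3.18 and 3.28 CPM in S100A9-inh, against 0.26, 0.341 and 0.665 CPM in Tr-BrM control, a 6.62-fold rise (log2 2.73 ± 0.362, adjusted p = 1.93e-07). PTGS2 was at 6.73, 7.19 and 6.23 CPM in S100A9-inh, against 0.833, 0.73 and 0.818 CPM in Tr-BrM control, an 8.44-fold rise (log2 3.08 ± 0.18, adjusted p = 4.85e-15). IL11, at 37.9, 43.7 and 42.1 CPM in S100A9-inh and 21.4, 23.9 and 22.2 CPM in Tr-BrM control, rose by 0.87 ± 0.071. The other 4 targets fell: ICAM1 by 0.62 (SE 0.0644), SOD2 by 0.41 (SE 0.048), TNFAIP2 by 0.25 (SE 0.0341) and CD83 by 0.59 (SE 0.154), the last with overlapping groups. Of the 9 myeloid markers, 3 reached 1 CPM in each of these PC9 groups, and their sum was 21.6 to 26.2 CPM in S100A9-inh and 15.6 to 16.6 CPM in Tr-BrM control. CSF1R was at 16.8 and 7.51 CPM in those groups, ITGAM at 2.77 and 4.68 CPM and CD14 at 3.41 and 3.64 CPM, whereas TYROBP, AIF1 and LYZ had no count in either and PTPRC was at 0.128 and 0.402 CPM. Astrocyte markers summed to 33.9 to 37.2 CPM in S100A9-inh and 96.8 to 102 CPM in Tr-BrM control, nearly all of it SLC1A3, at 34.1 and 97.6 CPM. GFAP was at 0.0819 and 0.151 CPM in those groups, ALDH1L1 at 1.13 and 0.98 CPM, and AQP4 had no count. Endothelial markers summed to 23.5 to 28.1 CPM and 40.3 to 41.2 CPM in those groups. Most of that was CDH5, at 21.7 and 31.7 CPM, with PECAM1 at 3.65 and 8.52 CPM and VWF at 0.532 and 0.652 CPM. The part of these markers in the PC9 results was not tested.

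**Figure D4:**
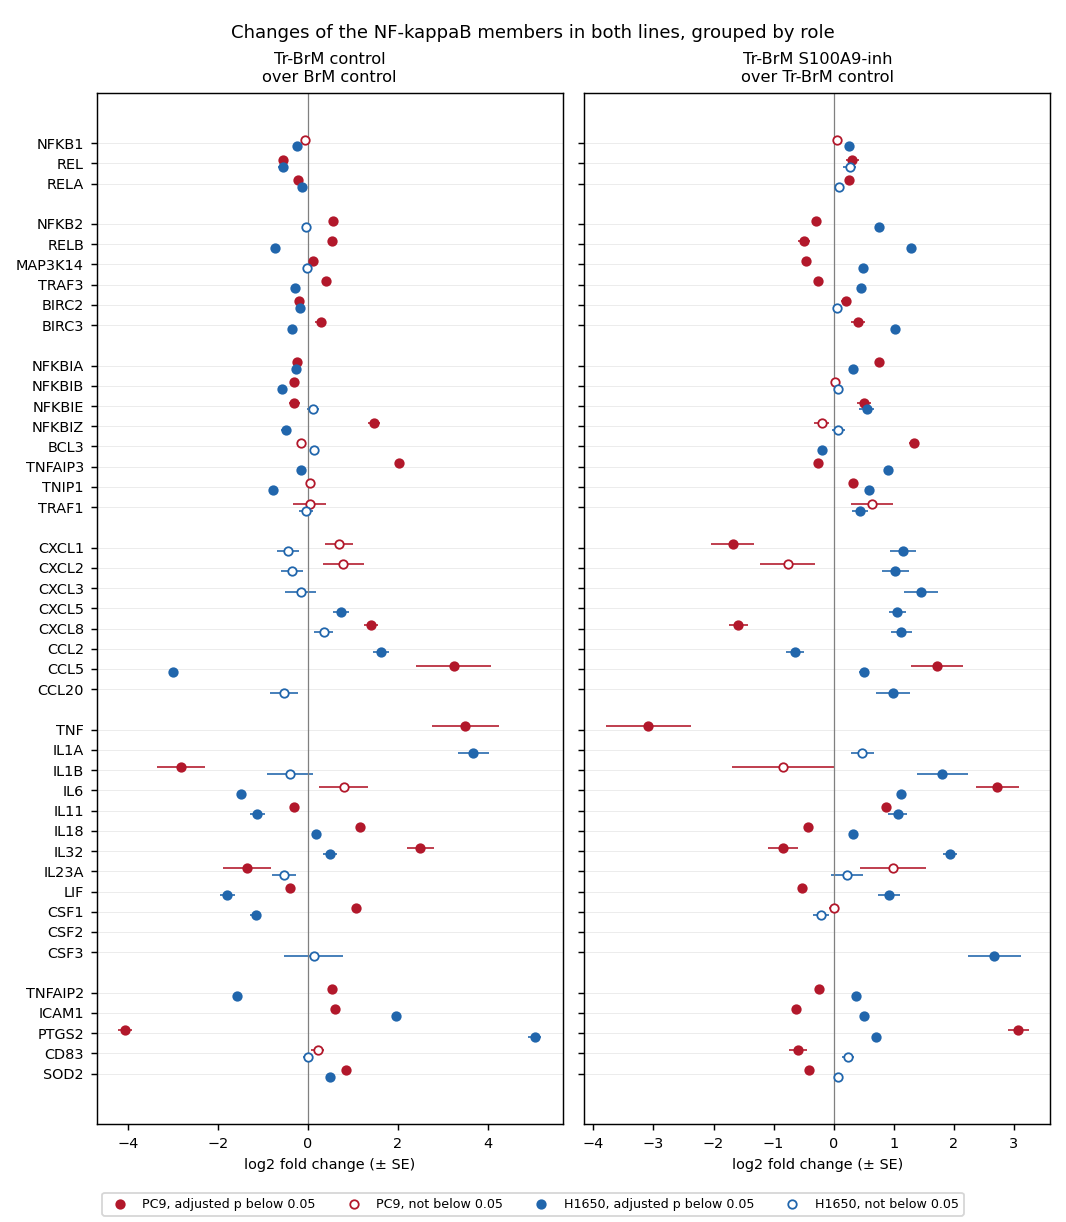
Log2 fold change (± SE) of each tested member in Tr-BrM control over BrM control (left) and in S100A9-inh over Tr-BrM control (right), PC9 in red and H1650 in blue, filled where the edgeR adjusted p is below 0.05, with blank rows between roles. In the right panel most H1650 points lie above 0, whereas the PC9 points of NFKB2, RELB, MAP3K14, TRAF3, CXCL1 and CXCL8 lie below it.

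Tr-BrM control was compared with BrM control, neither of them labelled as inhibited. S100A9 itself was higher in Tr-BrM control, 6.13-fold in PC9 and 1.48-fold in H1650. In H1650, 8 of 40 tested members were higher, 18 lower and 14 did not pass, or 20% and 45%, where 32.2% of all tested genes were called higher and 31.7% lower. The median log2 fold change was -0.20 over the members and 0.00 over all genes. All 3 canonical subunits fell, REL most, at 5.3, 5.3 and 5.59 CPM in Tr-BrM control and 8.49, 7.73 and 7.63 CPM in BrM control (-0.56 ± 0.11). RELA fell by only 0.13 (SE 0.0394), a call lost with scaling by library size alone (adjusted p = 0.305) and without replicate 2 of Tr-BrM control (adjusted p = 0.0763, range over 13 alternatives 0.00214 to 0.305). In the non-canonical arm 4 genes fell and none rose: RELB, at 17.7, 17.5 and 19.2 CPM in Tr-BrM control and 29.9, 28.9 and 30.9 CPM in BrM control, fell by 0.72 (SE 0.0618), whereas NFKB2 and MAP3K14 did not pass. TNIP1 fell by 0.77 (SE 0.0391), and 5 of 8 inhibitor and feedback genes were lower and none higher. Among these TNFAIP3 fell by 0.16 (adjusted p = 0.0464) and lost its call in 10 of 13 alternatives (adjusted p 0.02 to 0.373).

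The secreted members of H1650 went both ways in Tr-BrM control. CCL5 was at 10.9, 11.8 and 11.6 CPM in Tr-BrM control, against 90.7, 91.8 and 90.7 CPM in BrM control, and was 7.93-fold lower (log2 -2.99 ± 0.0574, adjusted p = 2.16e-26). IL6 was at 16, 16.9 and 18.2 CPM in Tr-BrM control, against 49.9, 46 and 47.2 CPM in BrM control (-1.49 ± 0.0672). LIF, IL11 and CSF1 fell by 1.79 (SE 0.171), 1.12 (SE 0.16) and 1.16 (SE 0.127), and TNFAIP2 by 1.57 (SE 0.0387). Against these, PTGS2 was at 21.6, 24 and 22.8 CPM in Tr-BrM control and 0.361, 0.728 and 1.06 CPM in BrM control, 33-fold higher (log2 5.04 ± 0.152, adjusted p = 9.79e-22). ICAM1 was at 23.2, 21.9 and 22.6 CPM in Tr-BrM control, against 5.15, 5.82 and 6.45 CPM in BrM control (1.97 ± 0.0851). IL1A, an alarmin released by damaged epithelium, was at 2.13, 2.78 and 2.14 CPM in Tr-BrM control and 0.181, 0.0455 and 0.355 CPM in BrM control (3.68 ± 0.35), and CCL2 rose by 1.62 ± 0.18. Several marker sums of non-epithelial cells also differed: fibroblast markers, COL3A1 leading, summed to 159 to 180 CPM in Tr-BrM control and 23.1 to 23.3 CPM in BrM control. Astrocyte markers, mostly GFAP and SLC1A3, summed to 225 to 236 CPM and 31.6 to 40.2 CPM in those groups, whereas ALDH1L1 was lower, at 0.642 and 2.66 CPM. Myeloid markers summed to 101 to 106 CPM and 92.7 to 95.1 CPM. Among them CSF1R, CD14 and CD68 were lower in Tr-BrM control, at 77.5, 2.44 and 0.0324 CPM against 85.9, 3.21 and 0.0998 CPM. The other myeloid markers were higher, PTPRC at 6.25 and 1.33 CPM. The part of these markers in the result was not tested.

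In PC9, 16 of 35 tested members were higher in Tr-BrM control than in BrM control, 11 were lower and 8 did not pass, or 45.7% and 31.4%, where 29.6% of all tested genes were called higher and 30.3% lower. The feedback gene TNFAIP3 was at 46.8, 49.2 and 46.1 CPM in Tr-BrM control against 10.8, 12.2 and 12 CPM in BrM control, 4.06-fold higher (log2 2.02 ± 0.0779, adjusted p = 7.85e-20). NFKBIZ, a co-activator of late targets such as IL6, was at 10.8, 11.8 and 12.1 CPM in Tr-BrM control and 5.05, 4.13 and 3.34 CPM in BrM control (1.47 ± 0.136). CXCL8 was at 7.24, 9.68 and 10.4 CPM in Tr-BrM control, against 4.02, 3.21 and 3.11 CPM in BrM control (1.41 ± 0.156). IL18 rose by 1.17 ± 0.0612, IL32 by 2.50 ± 0.302, CSF1 by 1.07 ± 0.0848 and SOD2 by 0.86 ± 0.0491. TNF had 36 counts in Tr-BrM control and 3 in BrM control, a ratio of 12.6 with a 95% exact counting interval of 4 to 64.2 (adjusted p = 0.00016), and CCL5 had 21 counts and 2 counts in those groups, a ratio of 11.1 with an interval of 2.7 to 97.3 (adjusted p = 0.00139). Such intervals cover counting error only. Astrocyte markers, mostly SLC1A3, summed to 96.8 to 102 CPM in Tr-BrM control and 15 to 16.5 CPM in BrM control. Endothelial markers, mostly CDH5, summed to 40.3 to 41.2 CPM and 22.8 to 26.6 CPM in those groups. Myeloid markers summed to 15.6 to 16.6 CPM and 32.1 to 32.9 CPM, mostly CSF1R, at 7.51 and 30.2 CPM. ITGAM, CD14 and PTPRC went the other way, at 4.68, 3.64 and 0.402 CPM in Tr-BrM control against 0.955, 0.979 and 0.147 CPM. The remaining myeloid markers were at or below 0.0978 CPM in both group means. The part of these markers in the differences of PC9 members was not tested.

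The non-canonical arm of PC9 was mostly higher in Tr-BrM control, with 5 of 6 genes higher and 1 lower. NFKB2 was at 103, 103 and 105 CPM in Tr-BrM control, against 70.8, 71.1 and 67.2 CPM in BrM control (0.57 ± 0.0469), and RELB was at 17.1, 15.4 and 16 CPM in Tr-BrM control, against 12.6, 10.5 and 10.3 CPM in BrM control (0.54 ± 0.1). TRAF3 rose by 0.41 ± 0.0413. The calls of the other 3 were less firm: MAP3K14 (0.11 ± 0.0492), BIRC3 (0.29 ± 0.121) and BIRC2 (-0.19 ± 0.0793) lost them in 7, 6 and 8 of 13 alternatives. The canonical subunits REL and RELA fell by 0.54 (SE 0.106) and 0.22 (SE 0.0453), and the inhibitors NFKBIA and NFKBIB by 0.24 (SE 0.064) and 0.30 (SE 0.0689). NFKBIE, at -0.30 ± 0.124, lost its call in 8 of 13 alternatives. PTGS2 was at 0.833, 0.73 and 0.818 CPM in Tr-BrM control, against 12.8, 13.4 and 13.8 CPM in BrM control, 16.7-fold lower (log2 -4.06 ± 0.162). IL1B fell to 0.104, 0.146 and 0.205 CPM in Tr-BrM control, against 1.18, 1.26 and 0.882 CPM in BrM control, and LIF fell by 0.40 (SE 0.0532).

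S100A9-inh was also set against BrM control, a comparison that shares its samples with both others. In H1650, 23 of 40 members were higher in S100A9-inh and 10 lower, or 57.5% and 25%, where 32.5% of all tested genes were called higher and 31.2% lower. NFKB2, MAP3K14, BIRC3, TNFAIP3, CXCL5 and PTGS2 were each above BrM control, by 0.70 ± 0.0333, 0.47 ± 0.0428, 0.67 ± 0.0574, 0.74 ± 0.062, 1.80 ± 0.158 and 5.75 ± 0.139. IL6, LIF, CCL5 and TNFAIP2 were still below BrM control in S100A9-inh, by -0.37 ± 0.0592, -0.87 ± 0.151, -2.49 ± 0.0529 and -1.20 ± 0.0369. In PC9, 16 of 35 members were higher in S100A9-inh than in BrM control and 6 lower, or 45.7% and 17.1%, where 22.7% of all tested genes were called higher and 23.6% lower. TNFAIP3 was at 1.76 ± 0.0789, BCL3 at 1.19 ± 0.0879, IL6 at 3.52 ± 0.398 and IL18 at 0.75 ± 0.0624, all higher in S100A9-inh. RELB, CXCL8 and ICAM1 of PC9 did not pass between S100A9-inh and BrM control, at 0.05 ± 0.104, -0.18 ± 0.183 and -0.01 ± 0.0666, and PTGS2 was lower in S100A9-inh (-0.98 ± 0.11).

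The difference between the lines was tested itself, as the PC9 change minus the H1650 change in 1 edgeR model of all 18 libraries, for the 34 members tested in both. For S100A9-inh over Tr-BrM control, 23 of 34 members differed (67.6%), 6 higher and 17 lower in PC9, where 40.4% of all 19076 tested genes differed. Those 19076 genes include genes that passed the low-count filter in a single line, whereas members of that kind are left out of the 34. The 2 shares are therefore not of like sets, and their gap is not a measure of an excess among the members. In 12 members the change was a fall in PC9 and a rise in H1650: NFKB2, RELB, MAP3K14, TRAF3, TNFAIP3, CXCL1, CXCL8, IL18, IL32, LIF, TNFAIP2 and ICAM1. The subunit RELB, with -0.49 in PC9 and 1.29 in H1650, differed by -1.78 ± 0.111, and the chemokine CXCL8, with -1.59 in PC9 and 1.13 in H1650, by -2.72 ± 0.284. BCL3 rose in PC9 and fell in H1650, where 8 of 13 alternatives lost the call. Another 8 members rose in both lines: BIRC3, NFKBIA, NFKBIE, TNIP1, CCL5, IL6, IL11 and PTGS2. None fell in both. How many of all tested genes changed in opposite or in the same directions was not counted, so these counts have no background here.

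For Tr-BrM control over BrM control, 22 of 34 members differed (64.7%), 19 higher and 3 lower in PC9, where 54.6% of all tested genes differed. The same mismatch of sets holds for these 2 shares. PTGS2, which fell in PC9 and rose in H1650, had the largest difference, -9.10 ± 0.223. RELB, TRAF3, BIRC3, NFKBIZ, TNFAIP3, CCL5, CSF1 and TNFAIP2 rose in PC9 and fell in H1650, where the TNFAIP3 call was lost in 10 of 13 alternatives. The PC9 value of CCL5 rests on 2 counts in BrM control, and the PC9 call of BIRC3 was lost in 6 of 13 alternatives. IL18, IL32, ICAM1 and SOD2 rose in both lines, and REL, RELA, BIRC2, NFKBIA, NFKBIB, IL11 and LIF fell in both. Here too, directions in the 2 lines were not counted over all tested genes. In H1650, the IL32 call was lost without replicate 2 of Tr-BrM control (adjusted p = 0.1, range over 13 alternatives 0.00245 to 0.1), and the BIRC2 call with scaling by library size alone (adjusted p = 0.0742, range 0.000103 to 0.0742).

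Around the members, the other genes of the pathway were called in both directions in H1650. In S100A9-inh over Tr-BrM control of that line, where 15.4% of all tested genes were called higher and 13.8% lower, 8 of 31 kinases and adaptors rose and 5 fell, with the paracaspase MALT1 at 0.40 ± 0.0543 and IRAK2, a kinase below IL-1 and Toll-like receptors, at 0.68 ± 0.102. Of 13 tested ubiquitin editors 3 rose and 2 fell, CYLD at 0.35 ± 0.0445 among them, and of 25 tested targets outside the set 8 rose and 3 fell, with CXCL16 at 0.34 ± 0.0402 and IER3 at 0.57 ± 0.0896. Receptors of the non-canonical arm gave 1 rise among 5 tested, TNFRSF12A (the TWEAK receptor) at 0.18 ± 0.0299, and no fall. Receptors of the canonical arm gave 2 rises and 3 falls among 12, with IL1R1 falling by 0.51 (SE 0.0468). Among 13 tested receptors or binders of the member cytokines 3 rose and 2 fell. OSMR, a receptor chain for oncostatin M, which is no member here, rose by 0.94 ± 0.037, and IL6ST, the gp130 chain shared by the receptors of IL6, IL11 and LIF, by 0.54 ± 0.0494. The ligands of the non-canonical arm had no call among 2 tested, and the inflammasome list had 1 rise and 2 falls among 8, PYCARD falling by 0.62 (SE 0.104).

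In PC9 S100A9-inh over Tr-BrM control, where 26.3% of all tested genes were called higher and 26.1% lower, kinases and adaptors had 11 rises and 5 falls of 30 tested, with IRAK1 at 0.43 ± 0.0344 and TRADD, the adaptor of TNF receptor 1, at 0.79 ± 0.0717. Ubiquitin editors had 8 rises and 1 fall of 14, SHARPIN and the RNase ZC3H12A at 0.43 ± 0.0542 and 0.61 ± 0.0815. Of 5 tested receptors of the non-canonical arm 3 fell and none rose: TNFRSF11A (RANK) was at 11.6 CPM in S100A9-inh and 32.7 CPM in Tr-BrM control (-1.49 ± 0.076), TNFRSF12A at -0.50 ± 0.0395 and CD40 at -0.22 ± 0.0713. TNFSF12, the TWEAK ligand of TNFRSF12A, which shares exons with a read-through gene, was at 0.695 CPM in S100A9-inh and 2.45 CPM in Tr-BrM control and fell by 1.82 (SE 0.297), and the other tested ligand rose. Canonical receptors had 4 rises and 2 falls of 11, TNFRSF1A rising by 0.68 ± 0.0442. Targets outside the set had 6 rises and 6 falls of 17, with CXCL16 and the iron-binding LCN2 falling by 0.85 (SE 0.0486) and 0.73 (SE 0.0421). Receptors of the member cytokines had 2 rises and 3 falls of 10, CSF1R rising by 1.16 ± 0.0944 and LIFR falling by 1.25 (SE 0.094), and the inflammasome list had 2 rises and no fall of 7.

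In Tr-BrM control over BrM control the lists are read against 29.6% of all tested genes higher and 30.3% lower in PC9, and 32.2% and 31.7% in H1650. Kinases and adaptors had 9 rises and 13 falls of 31 in H1650, CHUK (IKK-alpha, the kinase of the non-canonical arm) rising by 0.58 ± 0.0468, and 6 rises and 14 falls of 30 in PC9, IKBKG (NEMO) falling by 0.81 (SE 0.0821). Ubiquitin editors had 4 rises and 5 falls of 13 in H1650 and 1 rise and 9 falls of 14 in PC9. The inflammasome list had 4 rises and 2 falls of 7 in PC9 and 3 rises and no fall of 8 in H1650. Canonical receptors had 4 rises and 4 falls of 11 in PC9 and 6 rises and 5 falls of 12 in H1650, and receptors of the member cytokines 6 rises and 4 falls of 10 in PC9 and 6 rises and 5 falls of 13 in H1650. Non-canonical receptors had 2 rises and 2 falls of 5 in PC9 and 1 rise and 2 falls of 5 in H1650, and of 2 tested ligands of that arm 1 rose and none fell in each line. The TWEAK ligand TNFSF12 rose in both lines, by 4.38 ± 0.412 in PC9 and 2.82 ± 0.167 in H1650. It was at 7.99 CPM in H1650 Tr-BrM control and 1.12 CPM in BrM control. In PC9 BrM control it was near the floor, so the size of the PC9 change is uncertain, and the overlap with a read-through gene applies here too. TNFRSF12A, the receptor of TNFSF12, was at 0.29 ± 0.0392 in PC9 and -1.17 ± 0.0297 in H1650, called in both. Targets outside the set had 7 rises and 5 falls of 17 in PC9, LCN2 at 2.11 ± 0.0457, and 10 rises and 7 falls of 25 in H1650, LCN2 at -4.64 ± 0.135.

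Some member values carry a limit of the counting. NFKBIB, SOD2 and IL6 overlap other genes, and MAP3K14, LIF, TNFAIP3, CCL5 and ICAM1 have antisense neighbours in GENCODE 29. Whether strand was used in counting is not given in the sources used here, so reads of those partners could not be told apart.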

How the data were processed

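RNA counts of 18 libraries, 9 from each of the 2 lines, were analysed from the tables of raw read counts per gene that the authors deposited. Libraries were made from poly-A selected RNA, per the labels' protocols. Reads were aligned with STAR to GRCh38, and R 4.0.1 and DESeq2 1.28.1 were used, per the submitters' processing notes. The counting tool, the annotation release and the strand setting were not given in the sources used here. Only 26 of the 42 members had the same gene identifier version in the counts of both lines, so the lines were counted on different annotation versions. Line and annotation version cannot be told apart in values compared between the lines. Symbols and lengths came from GENCODE 29 and promoters from RefSeq.

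Each line was fitted by itself with edgeR 4.0.16 in R 4.3.3 (filterByExpr, TMM scaling, quasi-likelihood test on all 9 libraries, Benjamini-Hochberg adjustment over all tested genes, threshold 0.05). The common dispersion came to a biological coefficient of variation of 0.0433 for PC9 and 0.0335 for H1650. Line differences came from an interaction term over all 18 libraries. The tests were tried on simulated counts in which a small part of the genes, all well counted, changed up or down in equal number. That simulation does not cover members at few counts, nor comparisons in which a large share of all genes changes. Alternatives were other scalings, other filters, DESeq2 1.42.0, fits of 6 libraries and each library left out. Named genes were all 42 members, S100A9, and up to 4 genes of each wider list with the smallest p in a comparison at 1 CPM or more. Members and lists were chosen with earlier results of these data known.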

Additional observations from a re-analysis of the deposited data

Results flagged for a closer look

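By a test of the difference itself, the change between groups differed between PC9 and H1650 for part of the 34 members tested in both. For S100A9-inh over Tr-BrM control it differed for 23 members (67.6%), where 40.4% of all tested genes differed. For Tr-BrM control over BrM control it differed for 22 members (64.7%), where 54.6% of all tested genes differed. The shares over all tested genes also cover genes that passed the low-count filter in a single line, so they are not of like sets with the members. The members below were called in opposite directions in the 2 lines, and values are the PC9 log2 change minus the H1650 change. Opposite calls were not counted over all tested genes.

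For S100A9-inh over Tr-BrM control, the difference in the non-canonical genes was -1.05 for NFKB2, -1.78 for RELB, -0.95 for MAP3K14 and -0.71 for TRAF3. In the feedback genes it was 1.53 for BCL3, whose H1650 call was lost in 8 of 13 alternatives, and -1.15 for TNFAIP3. The chemokines CXCL1 and CXCL8 differed by -2.82 and -2.72. The cytokines IL18, IL32 and LIF differed by -0.75, -2.79 and -1.45, and the targets TNFAIP2 and ICAM1 by -0.61 and -1.13. The PC9 call of IL32 was lost in 2 of 13 alternatives.

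For Tr-BrM control over BrM control, the difference was 1.25 for RELB, 0.70 for TRAF3 and 0.64 for BIRC3. It was 1.95 for NFKBIZ and 2.17 for TNFAIP3. The PC9 call of BIRC3 was lost in 6 of 13 alternatives and the H1650 call of TNFAIP3 in 10 of 13. CCL5 differed by 6.25, a fitted value that rests on 2 counts in PC9 BrM control. CSF1, TNFAIP2 and PTGS2 differed by 2.22, 2.10 and -9.10.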

How the results depend on the processing

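No member value that was called, in the fit reported or under an alternative, differed in direction between the reported fit and that alternative. Within a line, 2783 of 2901 member values kept their side of the threshold, 92 lost the call and 26 gained it, and between lines 1182 of 1224 kept it, 13 lost it and 29 gained it. The number of members lower in H1650 S100A9-inh than in Tr-BrM control was 2, against 1 with no filter other than 1 count, 1 with DESeq2 and 1 to 1 with each library left out in turn. The number of members whose change in Tr-BrM control over BrM control was lower in PC9 than in H1650 was 3, against 6 with scaling by library size alone and 3 to 5 with each library left out, the 5 without replicate 3 of H1650 BrM control. Members at few counts, among them IL1B, CSF3, TNF and CCL5 in PC9 and CXCL3 in H1650, are limited by depth. No paired analysis was possible because the titles carry running library numbers that no groups share.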
